A study of Mus musculus with 12 samples.

Results

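CD4 and CD8 double-positive (DP) thymocytes were compared with thymocytes of the stage just before them, the fourth double-negative stage (DN4), by sequencing of small RNAs. Both populations were sorted by flow cytometry from the thymus of C57BL/6 mice. DP cells were gated as CD4+ CD8+ with CD3lo and CD90+, and DN4 cells as CD3lo and CD90+ cells that were CD4- CD8- and also CD44- and CD25-. Total RNA was run on a gel, fragments of the size of miRNAs were cut out, and adaptors were joined only to RNAs that carried a phosphate at the 5' end and a hydroxyl at the 3' end. There was 1 library for each population, so every interval given here covers counting error alone and no p-value between the populations was computed. All miRNA names with reads in either library were compared: 335 names in all, of 548 in the whole series of 12 populations. DP reads carried 318 of these names and DN4 reads 265, and 248 names were shared by both.

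A miRNA is a short RNA cut from a hairpin precursor. It guides Argonaute proteins to messenger RNAs that pair with its seed, bases 2 to 8 from its 5' end, and lowers the stability and translation of those messages. DN4 thymocytes have assembled a T cell receptor beta chain, divide rapidly and are on the way to expressing both coreceptors. DP thymocytes rearrange the alpha chain and are tested for how strongly their receptor binds self peptides. miR-181a is known as a miRNA of this step: it lowers several phosphatases and so raises the sensitivity of T cell receptor signalling. miRNAs of the miR-17 cluster are known for supporting proliferation and survival of lymphocytes, and miR-146a for restraining NF-kB signalling.

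The sequences of the miRNAs that the comparison turned on are shown with the seed in capitals, as annotated by RefSeq on GRCm38.p6. The first 5 are the miR-181 names, of which the first 4 share 1 seed and differ after it.
miR-181a: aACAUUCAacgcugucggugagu
miR-181b: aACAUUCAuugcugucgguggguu
miR-181c: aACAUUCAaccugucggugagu
miR-181d: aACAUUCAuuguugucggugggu
miR-181a-1*: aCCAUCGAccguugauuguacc
miR-22: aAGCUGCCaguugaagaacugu
miR-146a: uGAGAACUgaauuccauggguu
miR-31: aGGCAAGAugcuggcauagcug
miR-296-3p: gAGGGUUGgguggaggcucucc
miR-298: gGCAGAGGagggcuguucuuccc
miR-17*: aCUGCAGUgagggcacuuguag
miR-15a: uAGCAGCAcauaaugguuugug
A star marks the arm of the hairpin that is usually the less abundant. miR-22 and miR-181a-1* were among the names with the highest ratios of DP to DN4, and miR-146a, miR-31, miR-296-3p and miR-298 among those with the lowest. miR-17* and miR-15a had some of the clearest differences in 3' ends.

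The DP library held 523881 reads assigned to mature miRNAs and the DN4 library 63386, a ratio of depths of 8.26. A count of 0 (an upper limit of 3 reads) therefore allowed up to 5.73 RPM (reads for each 1000000 mature reads) in DP and up to 47.3 in DN4. In both libraries most reads began at the second base of the annotated miRNA, 98.6% of reads in DP and 96.6% in DN4, so the first 7 letters of a typical read are its seed. Only the library of embryonic fibroblasts shared this start, while DN3 reads began at base 1 and reads of the other populations at base 3. Names found in 1 library alone had few reads: the 70 names with reads only in DP had 124 reads together, the highest being miR-205 with 7, and the 17 names only in DN4 had 26.5 reads together, the highest being miR-1186 with 3. Fractions of reads arise because a sequence that fits several names was divided equally among them.

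miR-181a took more than any other name in both populations and far more in DP. It had 289760 reads in DP, 55.3% of the mature reads (95% exact binomial interval 55.2 to 55.4), against 13919.5 reads in DN4, 21.96% of the mature reads (21.6 to 22.3). On the scale of RPM this is 553104 in DP and 219599 in DN4, a ratio of 2.52 (interval 2.48 to 2.56). The concentration of reads on few names is also seen in the effective number of names, the exponential of the Shannon entropy, which was 9.11 in DP and 33.0 in DN4. Left without miR-181a, the effective number was 30.1 in DP and 44.9 in DN4. In sorted populations, more cells with a miRNA and more of it per cell cannot be told apart.

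Because reads are a share of a total, a name that takes most of 1 library lowers every other name in it. Each name was therefore set on a pair of scales, in RPM and in RPM without miR-181a. A name was called when the whole 95% interval of its ratio lay beyond 2-fold, and when the higher of the pair reached 100 RPM on 10 or more reads. In RPM, 141 names met the level, of which 1 was called higher in DP (0.709%), namely miR-181a, and 74 were called lower (52.5%). Without miR-181a, 145 names met the level, of which 3 were called higher in DP (2.07%) and 30 lower (20.7%). All of these 30 were also among the 74. The median log2 ratio of DP to DN4 was -1.50 on the first scale and -0.69 on the second.

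The choice of scale set most of these calls. A scaling multiplies all ratios by 1 factor: relative to RPM the factor was 1.75 without miR-181a, 3.15 with TMM factors and 3.28 with median-of-ratios factors, which are shifts of 0.80, 1.66 and 1.72 on the log2 scale. With either of these factors 21 names were called higher in DP (13.4%) and 10 lower (6.37%), of 157 at the level, so that 67.7% of calls were in the direction of DP, against 1.33% in RPM. The median log2 ratio was then 0.19 or 0.25. Both factors are set to bring typical ratios near equality, so the move of the median toward equality follows from their construction. The median-of-ratios factor was set over 246 names with reads in both libraries, more than the 157 at the level. Why more names were then called higher than lower was not tested. Which scaling fits these cells was not tested. Results that do not depend on it are the names called the same way under the 8 scalings computed, the ratios of one miRNA to another within a library, and the ends of the reads. Under the 8 scalings 10 names were called lower every time, miR-181a was called higher under each of the 4 that keep it, and no name was called lower under one scaling and higher under another.

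**Figure D1:**
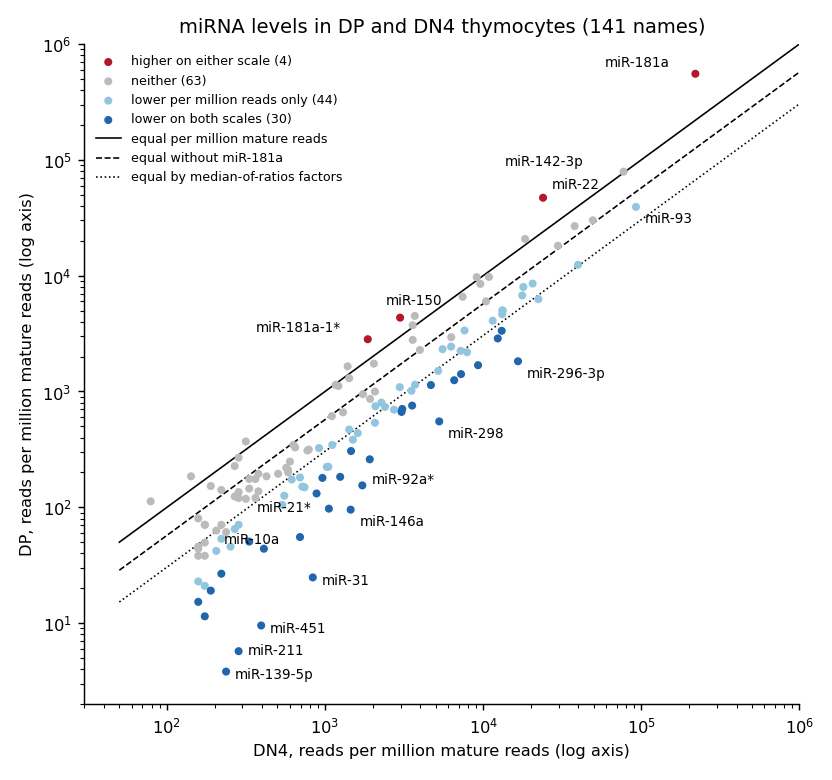
Levels of 141 miRNA names in DP (vertical axis) and DN4 (horizontal axis), in RPM on log axes, with 1 point for each name and lines of equal level under 3 scalings. miR-181a and miR-22 lie above the line of equal RPM, most names lie below it, and miR-139-5p, miR-211, miR-451 and miR-31 lie farthest below all 3 lines.

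The miR-181 family did not move as a block. miR-181a stood at 553104 RPM in DP and 219599 in DN4. miR-181b had 20737 RPM in DP and 18403 in DN4. miR-181c had 8491 RPM in DP and 9592 in DN4, and miR-181d 2321 RPM in DP and 5538 in DN4. Of these 3 only miR-181d was called on the main scales, lower in DP in RPM, and its ratio was 1.38 with median-of-ratios factors. Of the 8 scalings, miR-181b was called higher in DP under 5 and miR-181c under 4. With median-of-ratios factors 4 of 5 tested miR-181 names were called higher, against 13.4% of all names. The DP library thus held 26.7 miR-181a reads for each miR-181b read and the DN4 library 11.9, a quotient of 2.24 (2.10 to 2.38). Against miR-181d the gap was wider: 238 miR-181a reads per miR-181d read in DP and 39.7 in DN4, a quotient of 6.01 (5.33 to 6.77). Such quotients are the same under every scaling.

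The 4 miR-181 names are encoded in 3 places of the genome. miR-181a and miR-181b come from a pair of clusters, Mir181a-1 with Mir181b-1 at chr1:137966455-137966718 and Mir181a-2 with Mir181b-2 at chr2:38852735-38853918 (GRCm38, GENCODE M21), whose mature sequences are identical and cannot be assigned to a copy. miR-181c and miR-181d lie together at chr8:84178716-84178961, yet miR-181c reads per miR-181d read were 3.66 in DP and 1.73 in DN4, a quotient of 2.11 (1.83 to 2.44). The star arms do tell the copies of miR-181a apart. miR-181a-1*, cut from the chromosome 1 hairpin, had 1480 reads in DP (2825 RPM) and 118 in DN4 (1862 RPM), while miR-181a-2* from chromosome 2 had 1 read in DP and 4 in DN4. In both libraries nearly all star reads of miR-181a were thus from the chromosome 1 copy. miR-181a-1* was called higher without miR-181a in the total, at a ratio of 2.65 (2.20 to 3.22). The mature reads of miR-181a, which pool both copies, outran this star arm. There were 196 miR-181a reads per miR-181a-1* read in DP and 118 in DN4, a quotient of 1.66 (1.37 to 2.00).

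Apart from miR-181a and its star arm, miR-22 and miR-150 were the names called higher in DP without miR-181a in the total. miR-22, a miRNA transcribed as an exon of its own host transcript Mir22hg (chr11:75463716-75463810), had 24656 reads in DP and 1515 in DN4. These are 47064 RPM in DP and 23901 in DN4, which made miR-22 the third most abundant name in DP and the eighth in DN4. Its ratio was 1.97 (1.87 to 2.08) in RPM and 3.44 (3.27 to 3.62) without miR-181a. Within each library, miR-22 had 1.2 reads per read of miR-93 in DP and 0.259 in DN4.

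miR-150 is a miRNA of mature lymphocytes that is known to lower Myb. It had 2273 reads in DP and 189 in DN4, or 4339 RPM in DP and 2982 in DN4, a ratio of 1.45 (1.25 to 1.70) in RPM and 2.54 (2.19 to 2.96) without miR-181a. This call rested on reads with an added base at the 3' end: counted only over sequences found exactly in a hairpin, a setting chosen after the data were seen, the ratio without miR-181a was 1.61 and the name was not called. miR-142-3p, abundant in all blood cells, was the second most abundant name in DP and the third in DN4, with 79008 RPM in DP and 77249 in DN4. Its ratio was 1.02 (0.993 to 1.05) in RPM and 1.79 without miR-181a, so it was called on neither scale, though it was called higher with TMM and median-of-ratios factors.

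With all reads counted, the 10 names lower in DP under all 8 scalings were miR-139-5p, miR-211, miR-451, miR-31, miR-146a, miR-10a, miR-92a*, miR-21*, miR-298 and miR-296-3p. The lowest ratios were those of names with few reads. miR-139-5p, encoded in an intron of Pde2a and counted here as a B lineage marker, had 2 reads in DP (3.82 RPM) and 15 in DN4 (237 RPM), a ratio of 0.0161 (0.00179 to 0.0694). miR-211, from an intron of Trpm1, had 3 reads in DP and 18 in DN4, a ratio of 0.0202 (0.0038 to 0.0691). The erythroid miR-451, which is cut by Argonaute2 in place of Dicer, had 5 reads in DP and 25 in DN4.

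miR-31 and miR-146a rested on more reads. miR-31 had 13 reads in DP (24.8 RPM) and 53 in DN4 (836 RPM), and was 33.7-fold lower in DP in RPM (18.1 to 67.4) and 10.2-fold lower under the scaling least favourable to a decrease. miR-146a had 50 reads in DP (95.4 RPM) and 92 in DN4 (1451 RPM). It was 15.2-fold lower in DP in RPM (10.7 to 21.9) and 4.60-fold lower under the least favourable scaling. Set against the name that moved the other way, there were 493 miR-22 reads per miR-146a read in DP and 16.5 in DN4. The related miR-146b, with the same seed, had 115 reads in DP and 36 in DN4 and was not called, at a ratio of 0.386 (0.264 to 0.579) in RPM.

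miR-296-3p and miR-298 were the deepest of the 10 names. They are encoded on the same strand in 1 cluster at chr2:174267047-174267585, in the imprinted Gnas region. miR-296-3p had 955 reads in DP and 1052 in DN4, which are 1823 RPM in DP and 16597 in DN4, 9.10-fold lower in DP (8.33 to 9.95) and 2.75-fold lower under the least favourable scaling. miR-298 had 289 reads in DP and 334 in DN4, or 552 RPM in DP and 5269 in DN4, 9.55-fold lower in DP (8.14 to 11.2). The pair kept its proportion: 3.30 miR-296-3p reads per miR-298 read in DP and 3.15 in DN4, a quotient of 1.05 (0.876 to 1.26). The other arm, miR-296-5p, had 94 reads in DP and 61 in DN4 and was called lower on both scales.

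Of the other 3 names, miR-92a* had 81 reads in DP and 109 in DN4, miR-21* had 51 in DP and 67 in DN4, and miR-10a had 29 in DP and 44 in DN4. The miR-92a* reads match the hairpin Mir92-2 on chromosome X and not the copy in the miR-17 cluster. For miR-10a, a progenitor miRNA from the Hoxb cluster, 10 of the 29 DP reads and 27 of the 44 DN4 reads matched the opposite strand of the hairpin. Without these it had 19 reads in DP and 17 in DN4, or 36.3 RPM in DP and 268 in DN4, a ratio of 0.135 (0.0666 to 0.277), which was still called lower in RPM. The other scalings were not computed without these reads, so the place of miR-10a among the 10 names rests on all its reads. Counted from reads that begin at base 2 alone, miR-10a was not called on either scale.

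Further abundant names were lower on both scales of the main comparison but not under every scaling. miR-7a, from an intron of Hnrnpk and a second locus, stood at 1686 RPM in DP and 9276 in DN4. miR-342-3p, from an intron of Evl and abundant in mature lymphocytes, stood at 183 RPM in DP and 1246 in DN4, and miR-188-5p at 132 in DP and 883 in DN4. miR-29c stood at 260 RPM in DP and 1917 in DN4 and shares part of its reads with miR-29b. Without miR-181a the fold by which these names were lower in DP was 3.15 for miR-7a, 3.90 for miR-342-3p, 3.84 for miR-188-5p and 4.23 for miR-29c.

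The miR-17 cluster and its paralogs showed lower values in DP in RPM and a spread around no change with median-of-ratios factors. Of 18 names of this list at the level, 15 were called lower in RPM with a median log2 ratio of -1.75, 6 without miR-181a with a median of -0.94, and 1 with median-of-ratios factors with a median of -0.03. Over all names at the level the share called lower was 52.5% with a median of -1.50 in RPM, 20.7% with a median of -0.69 without miR-181a, and 6.37% with a median of 0.25 with median-of-ratios factors. Its summed level was 62490 RPM in DP and 166819 in DN4. miR-93, the second most abundant name in DN4, stood at 39228 RPM in DP and 92418 in DN4, and its ratio was 0.74 without miR-181a and 1.39 with median-of-ratios factors.

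Members of the cluster differed among themselves. The hairpins of miR-17, miR-18a, miR-19a, miR-20a, miR-19b and miR-92a lie within chr14:115043671-115044506 in the transcript Mir17hg. The ratios of DP to DN4 without miR-181a were 0.33 for miR-20a (0.294 to 0.377), 0.34 for miR-92a (0.303 to 0.383), 0.37 for miR-17 (0.315 to 0.440), 0.50 for miR-19a, 0.54 for miR-18a and 0.73 for miR-19b (0.684 to 0.774). Thus miR-19b reads per miR-92a read were 6.05 in DP and 2.83 in DN4, a quotient of 2.14 (1.87 to 2.44). miR-19b and miR-92a each have a second copy on chromosome X, where the cluster of miR-106a lies, and their mature reads cannot be divided between the copies. In the paralogous cluster within Mcm7 (chr5:138165321-138165818), the annotation places Mir106b in an intron and Mir93 and Mir25 in exons of transcripts. Its ratios without miR-181a were 0.89 for miR-106b, 0.74 for miR-93 and 1.00 for miR-25, all higher than those of miR-17, miR-20a and miR-92a. The ratios of the clusters overlapped, since miR-93 was near miR-19b, and the Mcm7 star arms had 0.62 (miR-106b*) and 0.58 (miR-93*).

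Other lists of related names are given by the same counts, to be read against the shares of all names: 52.5% called lower in RPM, 20.7% called lower without miR-181a, and 13.4% called higher with 6.37% lower with median-of-ratios factors. In the let-7 family, known for promoting differentiation, 5 of 9 names were called lower in RPM, near the 52.5% of all names, with a median log2 ratio of -1.17, none without miR-181a, with a median of -0.36, and with median-of-ratios factors 2 were called higher and the median was 0.55. Within it let-7b stood at 9703 RPM in DP and 9095 in DN4 and let-7g at 7980 in DP and 17938 in DN4, so that let-7b reads per let-7g read were 1.22 in DP and 0.507 in DN4. The quotient of this pair was 2.40 (2.15 to 2.67). The pair sets let-7b, which had the highest ratio of the names with the let-7 seed (1.86 without miR-181a), against a name with a lower one. Its interval covers counting error and not the choice of the pair. The most abundant member, let-7i, stood at 30054 RPM in DP and 49364 in DN4.

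All 4 tested names of the miR-29 family, known for targeting T-bet and matrix proteins, were called lower in RPM (52.5% of all names), 2 of them without miR-181a (20.7% of all names), and none with median-of-ratios factors. The summed level of the family was 7712 RPM in DP and 29155 in DN4. In the imprinted list all 3 tested names, miR-296-3p, miR-296-5p and miR-298, were called lower on both main scales, and 2 with median-of-ratios factors. Of the 5 names linked to lymphocyte activation, with miR-21 and miR-146a among them, 3 were called lower in RPM, near the 52.5% of all names, and 2 without miR-181a and with median-of-ratios factors, where the shares of all names were 20.7% and 6.37%. The levels of miR-21 itself were 536 RPM in DP and 2067 in DN4.

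The lists of miR-15 and miR-16, miR-26, miR-142 and miR-181 had median log2 ratios above 0 without miR-181a in the total, between 0.72 and 0.90, against -0.69 for all names. None of the 4 tested names of miR-15 and miR-16, known for holding back cyclins and Bcl2, was called on either main scale, and 3 of 5 were called higher with median-of-ratios factors. miR-15a stood at 3734 RPM in DP and 3581 in DN4, and miR-15a reads per miR-92a read were 2.64 in DP and 0.495 in DN4, a quotient of 5.34 (4.46 to 6.4). This pair sets names of unlike ratios, 1.82 and 0.34 without miR-181a, and the interval does not cover the choice of the pair. miR-26a, with 4492 RPM in DP and 3692 in DN4, had a ratio of 2.13 (1.86 to 2.44) without miR-181a. The miR-30 family had no name called on either main scale of 6 tested, and the median log2 ratio of its names was -1.08 in RPM, -0.28 without miR-181a and 0.67 with median-of-ratios factors, under which 1 of 7 was called higher.

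The remaining lists were small. In the clusters of miR-23, miR-27 and miR-24, 1 of 3 tested names, miR-24, was called lower in RPM, at 802 RPM in DP and 2272 in DN4, though its ratio was 1.16 with median-of-ratios factors. The hairpins not cut by Drosha gave miR-320 and miR-484, both called lower in RPM and neither without miR-181a, with ratios of 1.17 and 1.21 under median-of-ratios factors. Of miR-128 and miR-139-5p, only miR-139-5p was called on the main scales. miR-128, abundant in thymocytes, stood at 26754 RPM in DP and 37879 in DN4, and was called higher in DP under 4 of the 8 scalings. Of the mature lymphocyte list 2 of 5 tested names were called lower on both main scales, miR-146a and miR-342-3p, while miR-150 was called higher without miR-181a. miR-34a was the 1 tested name of the miR-34 family and was not called, with 97 reads in DP and 27 in DN4, and no name of the miR-183 cluster reached the level in RPM. miR-378 was called lower in RPM only, at 12404 RPM in DP and 39756 in DN4, and had a ratio of 1.02 with median-of-ratios factors.

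**Figure D2:**
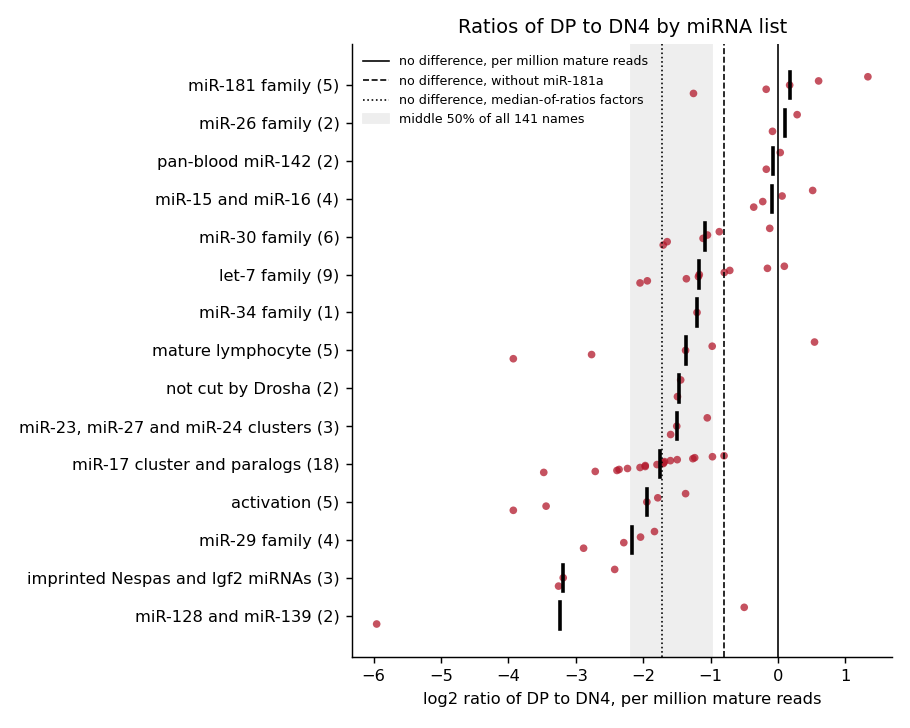
Ratios of DP to DN4 on the log2 scale in RPM, with 1 point for each tested name, bars at the median of each list, and vertical lines where each scaling puts no difference. The lists of miR-181, miR-26, miR-142 and miR-15 with miR-16 have medians to the right of the line without miR-181a, and the names of the imprinted list lie to the left of all 3 lines.

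Summed over names that share a seed, the same order was seen. Without miR-181a in the total, the lowest summed ratios of DP to DN4 were 0.272 for the seed of miR-146a and miR-146b (interval 0.215 to 0.346), 0.390 for that of miR-101a and miR-101b, and 0.403 for that of miR-103 and miR-107. The 6 names with the seed of miR-17, among them miR-93, had 0.699 (0.681 to 0.719) and the 8 names with the let-7 seed 1.08 (1.05 to 1.11). The highest were 1.57 for the seed of miR-15a and miR-16, 1.64 for miR-181b, miR-181c and miR-181d together, and 2.09 for miR-26a and miR-26b. With miR-181a counted, its seed alone made up 584654 RPM in DP and 253132 in DN4.

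The balance between the arms of a hairpin does not depend on scaling. Among 48 pairs of arm names with at least 30 reads in each library, the share of the star or 3' arm was lower in DP in 31 and higher in 17. The intervals were apart in 8 pairs, 7 lower and 1 higher in DP. Some pairs set the star arm of 1 copy against mature reads pooled over several copies, as for both star arms of miR-181a and for miR-92a*. In the 32 pairs whose names matched no more than 1 hairpin, the share was lower in DP in 20 and higher in 12, with intervals apart in 4 that were lower and 1 that was higher. The share of miR-342-3p over both arms was 69.6% in DP and 88.8% in DN4, and that of miR-21* was 15.4% in DP and 33.8% in DN4. miR-423-3p made up 27.2% of its pair in DP and 37.3% in DN4. The pair with intervals apart in the other direction was miR-142-3p, at 92.3% in DP and 91.3% in DN4. Star names together made up 1.01% of mature reads in DP and 2.83% in DN4, or 2.26% in DP and 3.63% in DN4 without miR-181a.

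The 3' ends of miR-181a differed between the populations. The 2 most common reads of it were, with the seed in capitals, the one that stops at the annotated end and the one that runs 2 bases further along the hairpin.
annotated end: ACATTCAacgctgtcggtgagt
2 bases longer: ACATTCAacgctgtcggtgagttt
Over both deposited tables, 34.5% of 297269 miR-181a reads in DP stopped at the annotated end (34.4 to 34.7), and 25.7% of 14264 reads in DN4 (24.9 to 26.4). The form with 2 further bases made up 26.4% in DP and 34.9% in DN4, so the order of both forms was exchanged. The form 2 bases short of the annotated end made up 7.93% in DP and 10.7% in DN4. Mean lengths were nearly equal, 22.59 bases in DP and 22.63 in DN4, and tails not found in the hairpins made up 8.05% in DP and 8.07% in DN4.

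**Figure D3:**
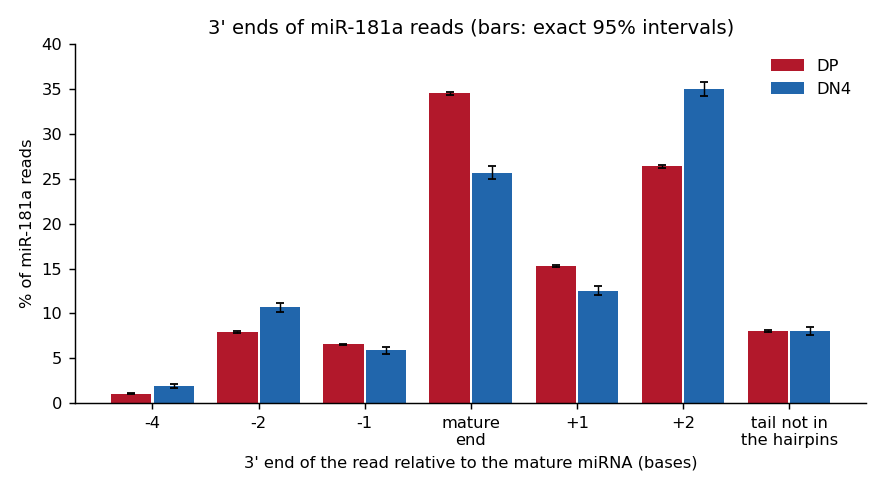
Share of miR-181a reads (vertical axis, percent) by the position of the 3' end relative to the annotated end (horizontal axis, bases), in DP and DN4, with exact 95% intervals for counting error; ends under 1% of reads in both populations are left out. The annotated end is the most common in DP and the end 2 bases further is the most common in DN4.

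Many miRNAs carried U added at the 3' end more often in DP. Such tails are known to be put on by terminal uridylyltransferases after cutting. A read was counted as tailed when its longest start found in a miRNA hairpin, of at least 16 bases, was followed by up to 3 U that are not there; this measure was chosen after the data were seen. Of 57 names with at least 100 reads from base 2 in both libraries, 47 had a higher share of U-tailed reads in DP and 10 a lower share. The intervals were apart in 20 names that were higher in DP and in 1 that was lower, miR-181a, at 0.12% in DP and 0.23% in DN4. Over both deposited tables, of which the hairpin table holds the longer tails of miR-181a, its share was 4.87% in DP and 4.28% in DN4, and 49 of the 57 names were higher in DP. The median share over the 57 names was 2.79% in DP and 2.15% in DN4. Over all reads of these names together, with miR-181a among them, the share was 2.61% in DP and 2.66% in DN4. This total counts mature reads from base 2, where miR-181a has few U tails. That name made up 55.3% of mature reads in DP and 21.96% in DN4, so it weighs on the total unequally. The total without miR-181a was not computed.

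The shift can be read from the most common sequences. miR-150 is one of the most heavily tailed names, and its most common read in DP ends in a U that is not in the hairpin, whereas its most common read in DN4 is the shorter one without it (capitals mark the seed).
miR-150 tailed: CTCCCAAcccttgtaccagtgt
miR-150 without tail: CTCCCAAcccttgtaccagt
miR-17* tailed: CTGCAGTgagggcacttgtagt
miR-17* without tail: CTGCAGTgagggcacttgtagc
The tailed miR-150 read made up 59.6% of miR-150 in DP (1355 reads) and 32.8% in DN4 (62 reads), and the shorter one 25.8% in DP (586 reads) and 49.7% in DN4 (94 reads). In all, 60.9% of miR-150 reads from base 2 had a U tail in DP (58.9 to 63.0) and 35.8% in DN4 (28.7 to 43.5). For miR-17* the tailed form was the most common in DP, at 30.3% of its reads, and the form that follows the hairpin was the most common in DN4, at 37.5%. The share of U tails of miR-17* was 32.6% in DP (30.3 to 34.9) and 12.3% in DN4 (10.04 to 14.8).

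Other names with U tails in DP more often, with intervals apart, came from unrelated families. The share was 42.3% in DP and 30.9% in DN4 for miR-15a, 22.3% in DP and 15.1% in DN4 for miR-19b, and 19.99% in DP and 8.91% in DN4 for miR-103. It was 20.5% in DP and 8.54% in DN4 for miR-671-5p and 14.7% in DP and 6.49% in DN4 for miR-296-3p, a name that was itself lower in DP. Among the most abundant names it was 10.6% in DP (10.1 to 11.1) and 4.73% in DN4 (4.01 to 5.54) for let-7i, and 8.22% in DP (7.95 to 8.50) and 4.32% in DN4 (3.75 to 4.96) for miR-142-3p. A tails did not follow: they were higher in DP in 17 names and lower in 40, with intervals apart in 1 name that was higher and 8 that were lower. The part of the 8.26-fold gap in depth in the U tails was not tested.

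**Figure D4:**
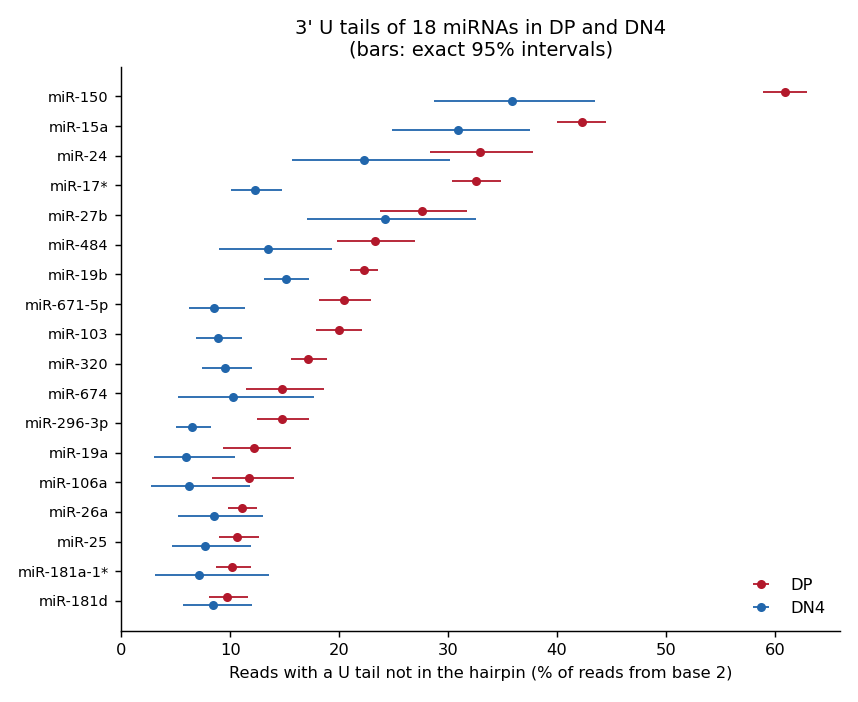
Share of reads with a 3' U tail that is not in the hairpin (horizontal axis, percent of reads from base 2) for the 18 names with at least 5% in DN4, in DP and DN4, with exact 95% intervals for counting error. The DP point lies to the right of the DN4 point for the 18 names, with intervals apart in 9.

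Set beside the other thymic stages, DN4 had the lowest U tail shares. Of the 57 names, 56 had at least 100 reads in all 7 thymic libraries, and DN4 had the lowest share of the 7 in 33 of them, DN2 in 11 and DP in 6. DP had the highest share in 11 names, as did DN1 and DN3, and CD4 single-positive (CD4SP) thymocytes in 10, so DP did not stand out at the upper end. The median share over the 56 names was 4.67% for DN1, then 3.03% for DN2, 4.93% for DN3 and 1.63% for DN4, 2.66% for DP, and 5.49% for CD4SP and 5.66% for CD8 single-positive (CD8SP) thymocytes. The lowest medians were thus those of DN4 and DP, the only thymic libraries with most reads from base 2, and the part of the start base in these shares was not tested. For miR-150 the share was 40.6% for DN1, then 49.2% for DN2, 34.5% for DN3 and 35.8% for DN4, 60.9% for DP, and 57.3% for CD4SP with 49.8% for CD8SP.

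Levels across the thymic stages are given as a description, since the start base of the reads changed with the library. miR-181a stood at 13112 RPM in DN1 and 25501 in DN2, at 93133 in DN3 and 219599 in DN4, at 553104 in DP, and at 97999 in CD4SP and 42560 in CD8SP, so DP was the peak of a run that goes up at each step. miR-22 stood at 11560, 1303 and 803 RPM in DN1, DN2 and DN3, at 23901 in DN4 and 47064 in DP, and at 12091 and 6934 in CD4SP and CD8SP. miR-296-3p instead peaked in DN4, with 197 RPM in DN1, 734 in DN2 and 1487 in DN3, against 16597 in DN4, 1823 in DP, 38.2 in CD4SP and 217 in CD8SP. miR-146a was low in DP (95.4 RPM) between 1451 in DN4 and 1512 in CD4SP, and lowest in DN3 at 27.0. miR-31 peaked in DN3 at 2967 RPM and was lowest in DP at 24.8.

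Some names set the DN4 and DP libraries apart from all other thymic ones. miR-16, which is among the most abundant names of most blood cells, stood at 2789 RPM in DP and 3581 in DN4, and between 107217 and 246177 in the other 5 thymic libraries. miR-21 likewise stood at 536 in DP and 2067 in DN4, and between 26776 and 159118 in the others. The fibroblast library, the third with reads from base 2, had 185 RPM of miR-16. The part of the start base in these levels was not tested, and levels of DP and DN4 are therefore read here against each other.

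**Figure D5:**
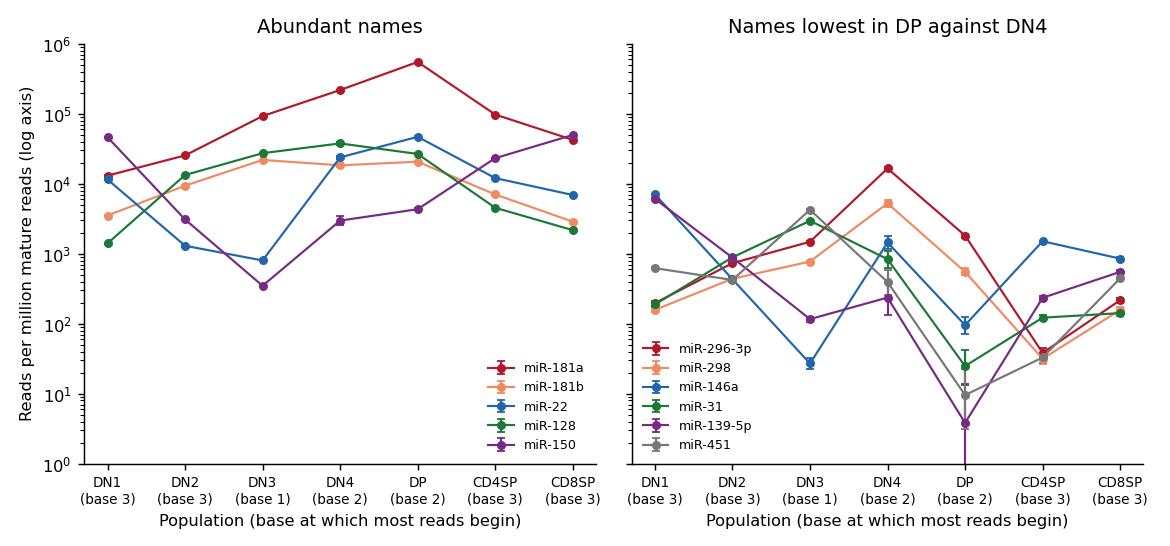
Levels in the 7 thymic libraries in order of development (horizontal axis, with the base at which most reads begin) in RPM on a log axis, 1 library each, with exact 95% Poisson intervals. miR-181a is highest in DP in the left panel, and in the right panel miR-296-3p and miR-298 peak in DN4 while miR-31 and miR-139-5p are lowest in DP.

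Markers of other cell types were at low levels in both populations. Several were called lower in DP in RPM, as were 52.5% of all names at the level. The erythroid list (3 of 4 names with reads, miR-144* at 0) summed to 10 reads in DP (19.1 RPM) and 35 in DN4 (552 RPM), most of it miR-451. The list of endothelial cells and progenitors (8 of 10 names with reads, miR-196a and miR-196b at 0 in both) summed to 681 RPM in DP and 1862 in DN4. Of its 4 tested names miR-10a and miR-126-3p were called lower in RPM, near the 52.5% of all names. miR-125b-5p had a ratio of 1.30 in RPM and 2.28 without miR-181a and was called higher under 4 of the 8 scalings. The median log2 ratio of the list was -2.09 in RPM, -0.06 without miR-181a and 0.85 with median-of-ratios factors. The B lineage list, miR-139-5p and miR-34a, summed to 189 RPM in DP and 663 in DN4. The myeloid miR-223 had 1 read in DP and 0 in DN4, and its star arm had none. Summed reads of the epithelial, mesenchymal, muscle, liver and neural lists were 46, 96, 11, 106 and 4 in DP, and in DN4 12, 20, 1, 34 and 2, in that order of lists. The part of other cells in the lower values of miR-451, miR-10a and miR-139-5p was not tested.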

How the data were processed

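For each library the authors deposited a table of distinct sequences assigned to mature miRNAs and one of the remaining sequences assigned to precursor hairpins, with a raw read count for each sequence, per the file headers. The sources used here give no aligner, trimming, mismatch limit or miRNA release. The 2 tables of CD8SP were taken by the names they hold, and for CD4SP only a mature table was used.

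Counts were summed by name in the mature tables, and sequences under several names were divided equally. Ratios of DP to DN4 have exact 95% conditional binomial intervals on rounded counts (scipy 1.17.1, Python 3.11.15). Reads made by PCR are not independent molecules, so intervals and floors cover counting error only. Alternative scalings used edgeR 4.0.16 and DESeq2 1.42.0 in R 4.3.3. The call rule is given with the results. Names in the text are the miR-181 names, the 5 most abundant of each library, the 10 highest and lowest called on each scale with at least 1000 RPM and 30 reads, up to 4 of each list, and markers at the level; the other names, among them those of seed groups, arm pairs and U tails, were chosen after their values were seen. Members and lists were chosen with earlier results of these data known. Hairpin positions are those of GENCODE M21 on GRCm38, found for 132 of 141 tested names, and mature sequences are from RefSeq. The interval and tail computations were tested on simulated data.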

Additional observations from a re-analysis of the deposited data

How the results depend on the processing

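No paired analysis was possible because there was 1 library per population. Scaling moved the counts most: in RPM, TMM gave 21 names higher and 10 lower and median-of-ratios the same 21 and 10, against 1 and 74, while leaving out the 3 most abundant names gave 4 and 23. Without miR-181a the same choices gave 20 and 10, 20 and 10, and 7 and 18, against 3 and 30. The median log2 ratio changed sign, to 0.19 (TMM) and 0.25 (median-of-ratios) in RPM and to 0.22 and 0.26 without miR-181a. With the 3 most abundant names left out of the RPM total it was -0.57. Of the names with ratios below 1 in RPM, 63 lay above 1 with TMM and 69 with median-of-ratios factors. Among those called lower in RPM and named by the rule these were 1.40 and 1.46 for let-7g, 1.32 and 1.38 for miR-181d, 1.31 and 1.37 for miR-19b, 1.11 and 1.16 for miR-24, 1.12 and 1.17 for miR-320, 1.16 and 1.21 for miR-484, 1.34 and 1.39 for miR-93, and 1.02 for miR-378 under the second alone. A threshold of 1.5-fold gave 2 higher in RPM, and 9 higher and 52 lower without miR-181a. A threshold of 4-fold gave 0 higher and 18 lower in RPM, with miR-181a (2.52) no longer called, and 0 higher and 10 lower without it. A floor of 1000 RPM left 47 lower in RPM. DP thinned to the depth of DN4 gave 19 lower without miR-181a, 17 of them among the 30. These follow from the construction of each alternative: another factor, threshold, floor or fewer reads. Only sequences found exactly in a hairpin (chosen after the data were seen) gave miR-181a 59.5% of reads in DP and 24.8% in DN4, star names 0.902% in DP, and starts at base 2 of 98.9% in DP and 97.6% in DN4. Without sequences seen once these were 55.6% and 22.4%, 0.970%, and 98.7% and 97.0%. miR-10a was no longer called from base-2 starts alone, with ratios of DP to DN4 of 0.237 in RPM and 0.416 without miR-181a. Dividing or leaving out shared sequences, adding the hairpin tables, and dropping the level floor kept the counts of calls within 1.5 times. A filter on mismatches was not run as planned, since mismatches are not given in these tables. For U tails the counts higher and lower in DP were 49 and 8 over both tables, 47 and 4 without sequences seen once, and 44 and 8 with tails of 1 base, against 47 and 10, all chosen after the data were seen. Depth limits the names with few reads: a count of 0 in DN4 allows up to 47.3 RPM.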

Other observations

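Names that resemble fragments of tRNA, rRNA or repeats were grouped after their values were seen. Of 13 such names 9 met the level, 8 were called lower in DP in RPM and 4 without miR-181a, against 52.5% and 20.7% of all names, with median log2 ratios of -2.25 and -1.45, against -1.50 and -0.69 for all names. Their summed level was 6206 RPM in DP and 18853 in DN4. With median-of-ratios factors none was called, and their median was -0.54. miR-1937a, the most abundant of those called on both scales, had 306 RPM in DP and 1459 in DN4.

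Sequences in the hairpin tables made up 10.5% of all assigned reads in DP and 15.3% in DN4. miR-181a took 46.0% of these hairpin reads in DP and 13.6% in DN4. Reads on the strand opposite to the hairpin were 0.0063% of mature reads in DP and 0.062% in DN4. For miR-34a they were 12 of 97 reads in DP and 7 of 27 in DN4, and without them the ratio was 0.514 (0.313 to 0.884) in RPM. Mean read length of 59 names with at least 100 reads was longer in DP in 28 and shorter in 31. The largest difference was that of miR-18a, 0.81 bases shorter in DP.

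let-7i had A tails, not in the hairpin, on 63.3% of reads from base 2 in DP and 63.5% in DN4. In DN1, DN2, DN3, CD4SP and CD8SP, whose reads begin at other bases, the shares were 20.9%, 20.8%, 25.8%, 22.9% and 18.5%. For miR-128, A tails were on 16.5% of reads in DP and 21.3% in DN4, with intervals apart.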
